A study of Mus musculus with 36 samples.

Results

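Hemoglobins and the erythroid genes expressed beside them were followed in the tibia of wild-type mice and of transgenic mice that model progeria, a human disease of premature aging. The members were 9 genes listed by name, and each was read from the table row with its symbol. They comprised the adult alpha globins Hba-a1 and Hba-a2, the adult beta globins Hbb-bs and Hbb-bt, and Alas2, Slc4a1, Epb42, Ahsp and Klf1. Of these, 8 were found among the 56246 genes of the table, and Ahsp, which encodes a chaperone of free alpha globin, was not analysed here. A total of 7 entered the tests across 15923 genes, because the mean level of Hba-a1 (0.498 scaled TPM) lay just under the minimum of 0.5. The next members above that minimum were Hba-a2 (0.747) and Hbb-bs (3.08).

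RNA was sequenced from 36 tibiae, with 1 library per mouse and 6 females and 6 males in each of 3 groups. No injection is recorded for the wild-type mice in the sources used here. The LMNA G/G mice (LMNA G608G/G608G) carried a double copy of a human BAC transgene holding LMNA with the G608G variant together with RAB25, on C57BL/6J and beside their own mouse Lmna. They were injected retro-orbitally at P14 (14 days after birth) with either saline or the adenine base editor (ABE), which was carried by a pair of AAV9 vectors. All mice were 6 months old at collection, and the ends of the bone and the marrow had been removed. The study describes the groups as littermates, and the labels number the wild-type mice in another form than the LMNA G/G mice (599M against F109436, for example). No label says whether they were bred or handled together.

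Red cell precursors arise in marrow, where the transcription factors Gata1 and Klf1 switch on the globin genes, heme synthesis and the proteins of the red cell membrane. A hemoglobin molecule joins alpha and beta globin chains around heme, and the amounts of both chains are closely balanced in the cell. Mature mouse red cells lack a nucleus, while young ones (reticulocytes) still hold globin mRNA. Alas2 is the first enzyme of heme synthesis in red cells. Slc4a1 is the band 3 anion exchanger, the main protein spanning the red cell membrane, and Epb42 (protein 4.2) binds it to the cytoskeleton.

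Both globin pairs are near copies, and this limits what each row can say. Hba-a1 (ENSMUSG00000069919.7) lies on GRCm38 at chr11:32283511-32284465 and Hba-a2 (ENSMUSG00000069917.7) at chr11:32296489-32297298, both on the plus strand. Hbb-bs (ENSMUSG00000052305.6) lies at chr7:103826534-103828096 and Hbb-bt (ENSMUSG00000073940.3) at chr7:103812524-103813996, both on the minus strand. The coding sequences of the alpha pair (426 bases) differed at 1 base, position 381 counted from the start codon, and those of the beta pair (441 bases) differed at 1 base, position 417. Neither difference changed the encoded residue. The stretch of the alpha pair that ends at the differing base is shown to make plain how little separates the transcripts, with that base as the capital at the end (positions 232 to 381, genome annotation vM21):
Hba-a1: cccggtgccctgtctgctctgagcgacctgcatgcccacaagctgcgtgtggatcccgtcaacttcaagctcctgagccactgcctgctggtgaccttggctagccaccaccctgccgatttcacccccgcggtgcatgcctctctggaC
Hba-a2: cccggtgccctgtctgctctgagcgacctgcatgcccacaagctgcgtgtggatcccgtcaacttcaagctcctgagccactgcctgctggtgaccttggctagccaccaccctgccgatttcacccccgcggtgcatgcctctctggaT

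Counted over windows as long as a sequencing read, 57.0% of the Hba-a1 windows occurred also in Hba-a2 and 73.0% of the Hba-a2 windows also in Hba-a1. For the beta pair, 45.5% of the Hbb-bs windows occurred in Hbb-bt and 50.6% of the Hbb-bt windows in Hbb-bs. The split of reads within each pair is therefore uncertain, since how reads with several matches were counted is not given in the sources used here. The remaining members shared little with other genes: Alas2 shared 6.76% of its windows with its neighbour Apex2, and Slc4a1, Epb42 and Klf1 shared 0. These 4 are protein-coding genes at chrX:150547375-150570638 (Alas2, ENSMUSG00000025270.13, plus strand), chr11:102348824-102366203 (Slc4a1, ENSMUSG00000006574.15, minus strand), chr2:121017891-121037072 (Epb42, ENSMUSG00000023216.13, minus strand) and chr8:84901928-84905291 (Klf1, ENSMUSG00000054191.8, plus strand).

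Because most members moved together in the data, their start regions were compared as well. RefSeq promoters (GRCm38.p6) were matched for 7 of the 8 members found, and 5 are shown as the 150 bases just before the RefSeq start, 5' to 3' on the gene's strand. Capitals mark matches, on either strand, to the GATA motif (GATA preceded by A or T and followed by A or G), the KLF1 CACCC box (CCNCNCCC), the CCAAT box (CCAAT) and the TATA box (TATAA), and overlapping matches run together. The regions are chr11:32296342-32296491 (Hba-a2), chr7:103827929-103828078 (Hbb-bs), chr7:103813924-103814073 (Hbb-bt), chrX:150547267-150547416 (Alas2) and chr8:84901832-84901981 (Klf1):
Hba-a2: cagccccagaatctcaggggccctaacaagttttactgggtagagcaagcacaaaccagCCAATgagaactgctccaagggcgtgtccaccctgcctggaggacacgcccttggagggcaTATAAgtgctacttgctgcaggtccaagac
Hbb-bs: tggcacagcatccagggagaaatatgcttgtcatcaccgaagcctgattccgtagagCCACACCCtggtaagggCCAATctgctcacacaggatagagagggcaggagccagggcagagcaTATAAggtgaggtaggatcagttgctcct
Hbb-bt: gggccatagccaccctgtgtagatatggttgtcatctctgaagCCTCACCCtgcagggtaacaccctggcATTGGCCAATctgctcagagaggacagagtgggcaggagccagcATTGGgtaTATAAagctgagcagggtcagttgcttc
Alas2: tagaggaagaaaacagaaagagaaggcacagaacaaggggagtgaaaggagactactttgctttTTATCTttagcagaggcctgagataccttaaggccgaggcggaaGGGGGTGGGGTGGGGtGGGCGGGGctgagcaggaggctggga
Klf1: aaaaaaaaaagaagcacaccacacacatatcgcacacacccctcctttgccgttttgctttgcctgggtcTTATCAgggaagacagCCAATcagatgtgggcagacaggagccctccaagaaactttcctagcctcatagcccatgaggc

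The Hba-a1 promoter was identical to that of Hba-a2 over all 247 aligned bases, whereas Hbb-bs and Hbb-bt matched at 185 of 239 aligned bases (77.4%). Within 250 bases before the start, a GATA motif was found in 6 of 7 members (26.5% of all promoters), with Hbb-bt as the exception. A KLF1 CACCC box was found in 3 of 7 members (Alas2, Hbb-bs and Hbb-bt), against 45.9% of all promoters. A CCAAT box was found in 5 of 7 members (33.8% of all promoters) and a TATA box in 6 of 7 (22.8% of all promoters). The TATA matches of Alas2 (-208 to -203) and Epb42 (-125 to -121) lay farther from the start than the nearest ones of the globins (-30 to -23). The identical alpha promoters entered these counts as separate members. These matches describe letters in the window and show no binding.

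The libraries held 48064068 to 116206662 reads on genes (median 78234452.5). Levels are given as scaled TPM, which are the deposited TPM (reads per gene length, scaled to a fixed total) divided by a median ratio factor for each library, because very short genes took 84.7% to 96.6% of the TPM total with 0.210% to 1.003% of the reads. The factors ranged from 0.216 to 1.57. Of the 36 libraries, 3 had a factor under 0.7, all of them ABE females: F109436 (0.216), F609472 (0.609) and F1WT609535 (0.690). Without scaling, the median log2 difference of all genes shifted to -0.13 between saline and wild-type, -0.42 between ABE and wild-type and -0.27 between ABE and saline, against medians within 0.017 of 0 after it. Osteocyte markers were present in every group, with a summed level of 11.6 to 53.1 scaled TPM in wild-type, 177 to 493.2 in saline and 182 to 357 in ABE libraries, so no ABE library fell into the wild-type range. Markers of marrow cells were present as well, and those of neutrophils summed to 823 to 2510, 1088 to 3706 and 365 to 4080 scaled TPM in these groups. All 12 neutrophil and all 12 skeletal muscle markers passed the minimum level.

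Few reads were assigned to the globin rows, and whether globin reads were lost in library preparation or counting was not tested. The 4 globins together received 174 to 5852 reads per library (median 1497), or 2.13 to 58.4 RPM of the reads on genes. Among single globins, Hba-a1 had 5 to 476 reads per library, Hba-a2 4 to 286, Hbb-bs 68 to 1217 and Hbb-bt 47 to 4359. The other erythroid members rested on far more reads, from 357 to 11573 for Klf1, 646 to 22462 for Epb42 and 3110 to 103442 for Alas2 up to 8578 to 294551 for Slc4a1. Among the members, counting error is thus largest for the alpha globins, and these ranges cover the depth behind every member value given here.

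On the scaled TPM scale, which is per length, the mean levels in wild-type tibia ran in the order Slc4a1, Alas2, Klf1, Hbb-bt, Epb42, Hbb-bs, Hba-a2 and Hba-a1. The globin rows therefore stood below the anion exchanger and the heme enzyme in every group, and the cause of that order was not tested. Most neighbours in the order kept their places in all 12 wild-type libraries. The exception was Hbb-bt (7.76 ± 2.66, SD, n = 12) and Epb42 (7.64 ± 2.26), since Hbb-bt was the higher in only 7 of 12. Saline libraries had the same order of means, with Klf1 above Hbb-bt in 10 of 12, Hbb-bt above Epb42 in 10 of 12 and Hba-a2 above Hba-a1 in 10 of 12. In ABE libraries Hba-a1 and Hba-a2 changed places on their means, but each was the higher in 6 of 12, and Hbb-bt exceeded Epb42 in 7 of 12.

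**Figure D1:**
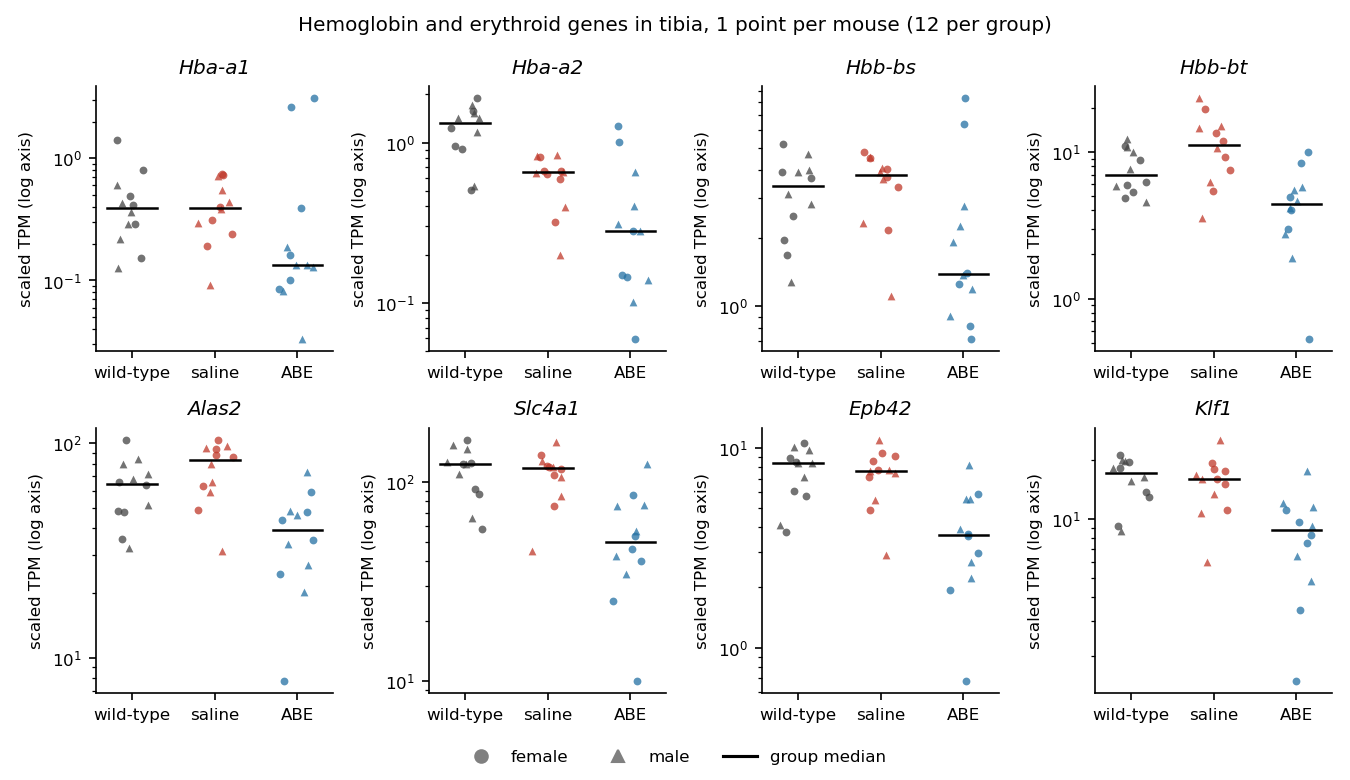
Scaled TPM (log axis) of the 8 members in each of the 36 libraries by group (wild-type, saline, ABE); circles are females, triangles are males and lines are group medians. The ABE libraries reach lowest for every member, for example 10.0004 for Slc4a1, and the groups overlap in all 8 panels.

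Among the alpha globins, Hba-a2 had its lowest, median and highest scaled TPM at 0.508, 1.33 and 1.90 in wild-type, 0.200, 0.651 and 0.832 in saline and 0.0591, 0.280 and 1.28 in ABE libraries. The highest saline library lay below the wild-type median, while the ranges overlapped. Hba-a1 ran at 0.126, 0.390 and 1.41 in wild-type, 0.0916, 0.392 and 0.743 in saline and 0.0330, 0.134 and 3.12 in ABE libraries. Its ABE libraries thus held both the lowest and the highest values of the series.

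For the beta globins, Hbb-bs ran at 1.28, 3.42 and 5.25 in wild-type, 1.11, 3.83 and 4.81 in saline and 0.713, 1.39 and 8.35 in ABE libraries. The median of the ABE libraries was the lowest, but the highest single library was again from that group. Hbb-bt ran at 4.58, 6.95 and 12.2 in wild-type, 3.55, 11.2 and 23.2 in saline and 0.528, 4.39 and 9.96 in ABE libraries. Its highest values were in saline libraries, M109440 (23.2) and F309418 (19.5).

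Among the other erythroid members, Alas2 ran at 32.3, 64.6 and 103 in wild-type, 31.5, 83.2 and 103 in saline and 7.75, 39.5 and 73.6 in ABE libraries. Slc4a1 ran at 58.1, 123 and 162 in wild-type, 45.2, 117 and 158 in saline and 10.0004, 49.8 and 122 in ABE libraries. For both genes the wild-type and saline ranges nearly coincided and the ABE range was shifted downwards. Epb42 ran at 3.81, 8.43 and 10.6 in wild-type, 2.91, 7.69 and 10.95 in saline and 0.677, 3.66 and 8.19 in ABE libraries. Klf1 ran at 8.70, 17.2 and 21.1 in wild-type, 6.04, 15.9 and 25.2 in saline and 1.48, 8.71 and 17.5 in ABE libraries. These 2 genes had the same layout as Slc4a1.

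The same few mice lay at the ends of these ranges. In the saline group M309451 was lowest for all 8 members. In wild-type mice 615M or 604F was lowest for every member, and 603F was highest for all but Hbb-bt. Within the ABE group F109436 was lowest for Hbb-bs, Hbb-bt, Alas2, Slc4a1, Epb42 and Klf1, whereas M409458 was highest for the 4 members that are not globins. F1WT609535 and F609472 had the highest 2 levels of every globin in that group, with 3.12 and 2.66 scaled TPM for Hba-a1 and 8.35 and 6.40 for Hbb-bs. Their Slc4a1 levels, 85.7 and 46.0 scaled TPM, ranked 11 and 6 of 12 from the lowest. Slc4a1 thus placed F1WT609535 nearly as high as the globins did, but placed F609472 in the middle of the group.

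Saline-treated LMNA G/G tibia was compared with wild-type, which differs from it in the transgene. The wild-type mice also have no recorded injection and may have been handled apart. Effects of the transgene, the injection and the handling cannot be told apart. Here 1 of the 7 tested members was lower and 0 were higher, where 26.6% of all genes tested were lower and 26.0% were higher. Differences were called at a Benjamini-Hochberg adjusted p under 0.05 from limma on log2(scaled TPM + 0.5), with sex as a covariate, and log2 differences on that scale understate the change of low genes. The member that fell was Hba-a2, with a log2 difference of -0.63 (SE 0.17, 95% interval -0.98 to -0.28, limma adjusted p = 0.0026) and 12 of 12 saline libraries below the wild-type median. Its mean was 0.603 ± 0.201 scaled TPM in saline and 1.24 ± 0.441 in wild-type libraries (SD, n = 12). When each pair was summed to avoid the uncertain split, the alpha globins differed by -0.51 on the log2 scale and missed the threshold (limma adjusted p = 0.10).

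The remaining members had values on both sides of 0 that missed the threshold. Hbb-bt differed by 0.46 (SE 0.29, 95% interval -0.13 to 1.06, limma adjusted p = 0.19) and Alas2 by 0.28 (SE 0.26, interval -0.25 to 0.81, limma adjusted p = 0.37) on the log2 scale. Slc4a1 (-0.06, interval -0.59 to 0.48), Epb42 (-0.04, interval -0.51 to 0.44), Klf1 (-0.08, interval -0.59 to 0.43) and Hbb-bs (0.12, interval -0.43 to 0.67) had differences nearer to 0. Hba-a1, fitted only without the minimum level, differed by -0.03 (limma adjusted p = 0.97). A missed threshold with intervals of this width does not show that the levels were equal. Skeletal muscle markers moved with this comparison, since 10 of 12 were higher and 0 lower in saline libraries. With the mean of those markers as a covariate, Hba-a2 differed by -0.40 (limma adjusted p = 0.053), while Hbb-bt (0.95, limma adjusted p = 0.0038) and Alas2 (0.68, limma adjusted p = 0.023) were higher in saline libraries, where 21.4% of all genes tested were higher in that fit.

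ABE-treated LMNA G/G tibia had lower levels of most members than wild-type tibia. Of the 7 tested, 6 fell and 0 rose, where 35.4% of all genes tested were lower and 35.1% higher. Slc4a1 fell by 1.2 on the log2 scale (SE 0.26, limma adjusted p = 0.00015), with a mean of 55.7 ± 30.4 scaled TPM against 114 ± 33.1 (SD, n = 12). All 12 ABE libraries lay below the wild-type median for Slc4a1, Epb42 and Hba-a2. Klf1 fell by 1.01 (limma adjusted p = 0.00062), Hba-a2 by 1.0 (limma adjusted p = 5.2e-06) and Epb42 by 0.99 (limma adjusted p = 0.00036) on the same scale. Hbb-bt fell by 0.83 (limma adjusted p = 0.012) and Alas2 by 0.79 (limma adjusted p = 0.0074). Hbb-bs differed by -0.58 (SE 0.27, 95% interval -1.13 to -0.03) and missed the threshold at a limma adjusted p of 0.0555, and Hba-a1, fitted without the minimum level, differed by -0.13 (adjusted p = 0.73).

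ABE-treated and saline-treated mice share the transgene, so this comparison addresses the ABE treatment. Its ABE group received AAV9 vectors and the other group saline alone, so editing and exposure to the vectors cannot be told apart. Again 6 of 7 members fell and 0 rose, where 23.6% of all genes tested were lower and 25.1% higher. Hbb-bt fell by 1.29 on the log2 scale (SE 0.29, limma adjusted p = 0.0013), with 4.62 ± 2.62 scaled TPM in ABE and 11.7 ± 5.86 in saline libraries (SD, n = 12) and 12 of 12 ABE libraries below the saline median. Slc4a1 fell by 1.14 (limma adjusted p = 0.0014) with 11 of 12 libraries below the saline median, which is 0.454 times the saline level on that scale. Alas2 fell by 1.07 (limma adjusted p = 0.0019), from 75.9 ± 22.1 to 38.9 ± 18.0 scaled TPM, with 12 of 12 libraries below. Epb42 fell by 0.95 (limma adjusted p = 0.0021) and Klf1 by 0.93 (limma adjusted p = 0.0038).

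The globins spread more widely in this comparison than the other members. Hbb-bs fell by 0.70 (SE 0.27, limma adjusted p = 0.033), a call that was lost in 9 of the 36 fits that left out 1 library, ABE F109436 among them, with adjusted p up to 0.072. Hba-a2 differed by -0.37 (95% interval -0.72 to -0.02) and missed the threshold (limma adjusted p = 0.073). It passed in 4 such fits, for instance without F1WT609535 (-0.47, limma adjusted p = 0.013). With 0.1 in place of the added 0.5 it passed (-0.75, limma adjusted p = 0.032), and with 1 it missed (-0.23, limma adjusted p = 0.11). Without the 3 ABE libraries whose scaling factor was under 0.7, an alternative chosen after seeing the data, all 7 members were lower in ABE than in saline libraries (log2 differences -1.32 to -0.56, where 23.7% of all genes tested were lower) and all 7 lower than in wild-type (-1.19 to -0.68, where 35.5% were lower). For Hba-a1 the difference without the minimum level was -0.10 (limma adjusted p = 0.83). Both comparisons with ABE libraries share the same 12 ABE libraries, and their values are therefore not independent of each other.

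**Figure D2:**
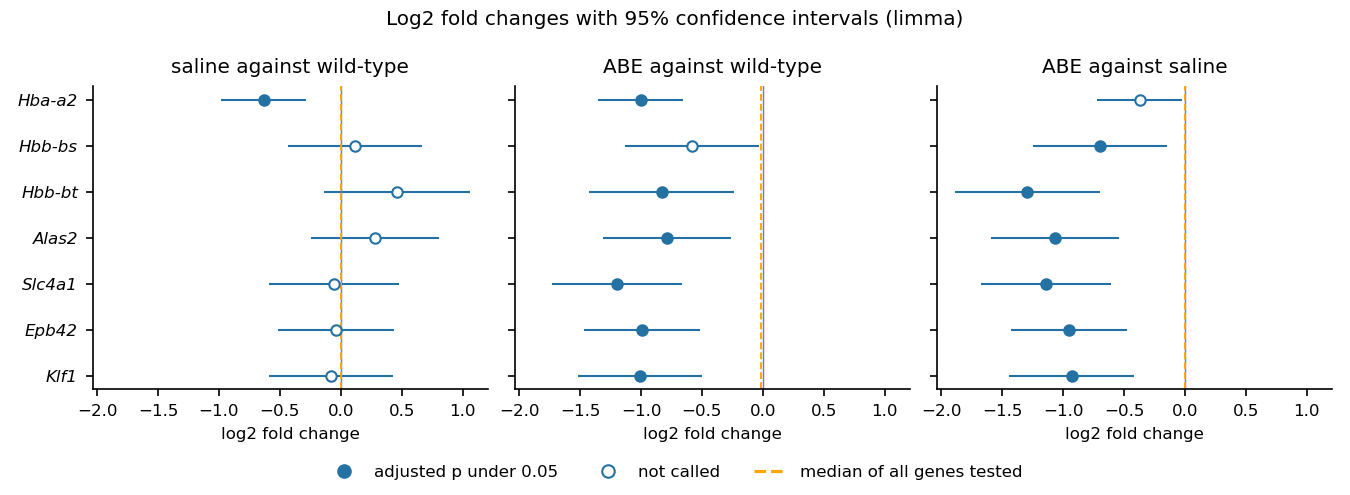
Log2 differences (horizontal axis, log2 scaled TPM + 0.5) with 95% confidence intervals for the 7 tested members in the 3 comparisons; filled points have an adjusted p under 0.05 and the dashed line is the median of all genes tested. Only Hba-a2 is filled in saline against wild-type, whereas 6 of 7 points are filled and below 0 in each ABE comparison.

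Markers of some other cells also differed where the erythroid members fell in ABE against saline. Between ABE and saline, 10 of 12 skeletal muscle markers were higher, and their summed level ran from 215 to 3313 scaled TPM in wild-type, 332 to 8474 in saline and 1127 to 13662 in ABE libraries, with medians of 1082, 2185 and 6677. Acta1 (skeletal actin) and Pvalb (parvalbumin) rose by 1.24 and 1.5 on the log2 scale. Among neutrophil markers, 10 of 12 were lower in ABE than in saline libraries, including the granule proteins Elane and Mpo (both -0.89). Of all genes tested, 23.6% were lower and 25.1% higher in that comparison. Over the 36 libraries, which share depth and dissection, the log2 levels of members correlated with the muscle marker mean at r from -0.74 to -0.22 and with the neutrophil marker mean at r from 0.31 to 0.81, given as a description. A bulk library cannot tell apart fewer erythroid cells from less erythroid RNA per cell.

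With the muscle marker mean as a covariate, 1 of 7 members was lower in ABE than in saline libraries, namely Hbb-bt (-0.79, limma adjusted p = 0.049), and the other members had log2 differences from -0.72 to -0.13. All genes tested were affected likewise, with 632 lower and 1242 higher. With the neutrophil marker mean as a covariate, 0 of 7 members passed (log2 differences -0.62 to -0.06, limma adjusted p 0.058 to 0.83, of which 5 at an unadjusted p under 0.05), and 467 genes were lower and 819 higher. Against wild-type, the muscle covariate left 0 of 7 members lower in ABE libraries, with log2 differences from -0.52 to 0.27 (limma adjusted p 0.052 to 0.97, with Hba-a2 alone at an unadjusted p under 0.05), where 18.2% of all genes tested were lower. The neutrophil covariate left 6 of 7 lower there, where 35.6% of all genes tested were lower. Both marker lists differ between the groups, so such a covariate also takes up part of the group difference.

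The members that are not globins followed each other closely. Over the 36 libraries, log2 levels of Alas2, Slc4a1, Epb42 and Klf1 correlated with each other at r from 0.94 to 0.99, and at r from 0.94 to 0.99 within group and sex. Hba-a2, Hbb-bs and Hbb-bt correlated with these genes at r from 0.67 to 0.90, and at r from 0.78 to 0.86 within group and sex. Hba-a1 correlated with them at r from 0.23 to 0.31, with Spearman's rho from 0.49 to 0.55 and r from 0.46 to 0.49 within group and sex. The points of all these correlations share libraries and scaling, and they are descriptions of these 36 libraries.

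**Figure D3:**
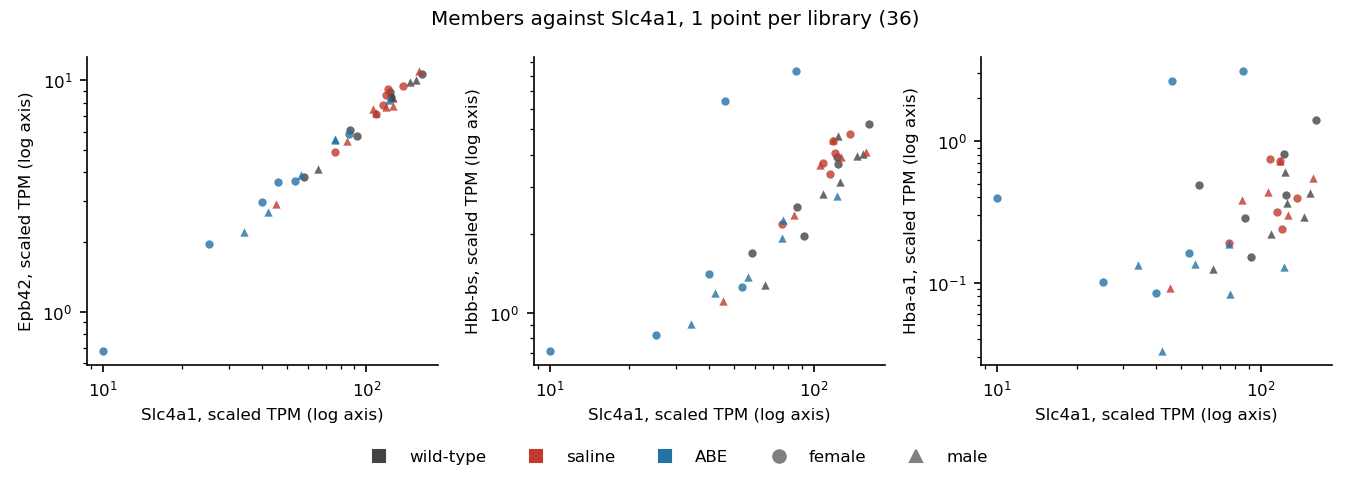
Scaled TPM of Epb42, Hbb-bs and Hba-a1 (vertical, log axes) against that of Slc4a1 (horizontal, log axis), 1 point per library (36), colored by group, with circles for females and triangles for males. Epb42 lines up closely with Slc4a1, whereas Hbb-bs (8.35 and 6.40) and Hba-a1 (3.12 and 2.66) of the ABE females F1WT609535 and F609472 lie above the other libraries.

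Genes most like the members were sought by correlation over 36 libraries with the mean standardized log2 level of the 8 members found, Hba-a1 included. Among 2309 genes with a mean of at least 5 scaled TPM, they were Rhag, Mkrn1 and Isg20 (each r = 0.95) and Pabpc1, Trim10, Ccna2, Gpx1, Cdr2 and Tent5c (each r = 0.94). Rhag is a red cell membrane protein of the Rh complex, while Ccna2 is a cyclin of dividing cells and Gpx1 a glutathione peroxidase. Within group and sex these correlations ran from 0.92 for Tent5c to 0.96 for Rhag.

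Males and females were compared because each group held 6 of either. A sex difference in the change was found for 0 of 7 members in each comparison by limma, also by limma-voom on the recovered reads, and 0 of 7 had an unadjusted p under 0.05. Over all genes tested, 0.490% had a sex difference in saline against wild-type, 3.15% in ABE against wild-type and 0.0502% in ABE against saline. The widest gap among members was that of Slc4a1 in ABE against saline, where the log2 difference was less negative in males. Male minus female was 0.94 (SE 0.51, limma adjusted p = 0.35). In females alone, 5 of 7 members fell in ABE against saline, where 13.6% of all genes tested were lower in that fit, led by Slc4a1 (-1.61, limma adjusted p = 0.020), Klf1 (-1.37), Epb42 (-1.34) and Alas2 (-1.33). In males alone 1 of 7 fell, where 10.1% of all genes tested were lower, so that count is near the background. This member was Hbb-bt (-1.32, limma adjusted p = 0.024), and Slc4a1 differed by -0.67 (limma adjusted p = 0.14). These counts differ, but the difference between the sexes itself did not pass its test.

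The ratio of alpha to beta globin within a library does not depend on the scaling factor. It can depend on how reads with several matches were counted, also after each pair is summed. The alpha rows share more of their windows (57.0% and 73.0%) than the beta rows (45.5% and 50.6%). The ratio describes rows with few reads and does not measure the balance of the chains. This ratio, Hba-a1 + Hba-a2 over Hbb-bs + Hbb-bt in TPM, ran at 0.113, 0.146 and 0.234 (lowest, median, highest) in wild-type, 0.0448, 0.0681 and 0.155 in saline and 0.0278, 0.0834 and 0.435 in ABE libraries. Saline libraries were lower than wild-type, with 11 of 12 below the wild-type median and F309422 as the exception. The log2 ratio differed by -1.13 (SE 0.17, two-sided permutation test with 100000 resamples, p = 2e-05, the smallest these resamples can give, adjusted p = 0.00012 over 6 ratio comparisons). The difference was seen in each sex, at -1.23 in females (exact permutation p = 0.011, adjusted p = 0.065) and -1.04 in males (exact permutation p = 0.0022, adjusted p = 0.0065), and the male p is the smallest that 6 against 6 allow.

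ABE libraries fell into unlike parts on this ratio. The 3 females with a scaling factor under 0.7 had the highest ratios, 0.435 in F109436, 0.248 in F609472 and 0.240 in F1WT609535, and the other 9 ran from 0.0278 to 0.0971. With all 12 libraries the log2 ratio differed from wild-type by -0.71 (SE 0.34, permutation p = 0.052, adjusted p = 0.079) and from saline by 0.43 (adjusted p = 0.30). Without the 3 libraries, ABE differed from wild-type by -1.26 and from saline by -0.13. This alternative was chosen after the values were seen and removed the 3 highest ABE ratios. Its differences are therefore a description and no test. In F109436 the ratio rests on 43 and 12 reads of Hba-a1 and Hba-a2 and on 72 and 47 reads of Hbb-bs and Hbb-bt.

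Between the beta globins, the ratio of Hbb-bt to Hbb-bs had medians of 2.47 in wild-type, 3.27 in saline and 2.11 in ABE libraries. Saline exceeded wild-type by 0.35 on the log2 scale (permutation p = 0.040, adjusted p = 0.079) and ABE differed from saline by -0.55 (permutation p = 0.050, adjusted p = 0.079). Neither passed after adjustment, and ABE against wild-type (-0.20, permutation adjusted p = 0.42) did not either. The windows that the pair shares leave this ratio dependent on how shared reads were assigned.

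**Figure D4:**
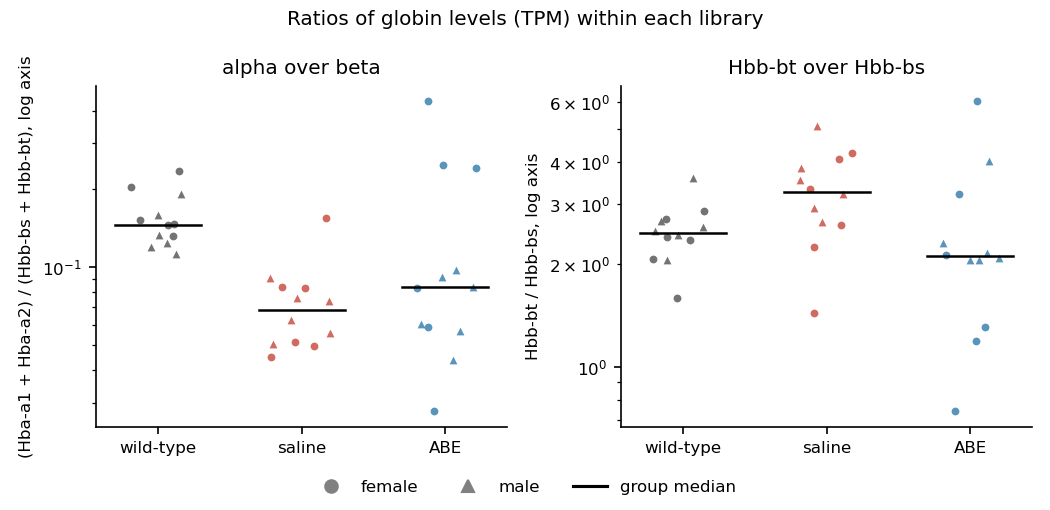
Ratios of globin levels in each library (log axes, no unit) by group, alpha over beta at left and Hbb-bt over Hbb-bs at right; circles are females, triangles are males and lines are group medians. The alpha to beta medians are 0.146 in wild-type and 0.0681 in saline, and 3 ABE females lie at 0.240 to 0.435.

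Embryonic globins were near 0. Hbb-bh1 had 0 reads in all 36 libraries, Hbb-bh2 had 2 reads in total and Hbb-y, an embryonic beta-like globin, had 6. Hba-x, the embryonic zeta chain, had 36 reads in total with 0 in 16 libraries. The theta globin row Hbq1b was measurable at 5 to 432 reads per library and fell by 0.75 in ABE against saline (limma adjusted p = 0.000803), while its difference in saline against wild-type, -0.21, missed the threshold (adjusted p = 0.28). Epo, the hormone that drives red cell formation and is made mainly in kidney, had 1 read in all libraries.

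Counts of this and the following lists stand against the shares of all genes tested. These were 26.6% lower and 26.0% higher in saline against wild-type and 35.4% lower and 35.1% higher in ABE against wild-type. In ABE against saline they were 23.6% lower and 25.1% higher. Heme synthesis genes moved with Alas2 in the ABE comparisons. All 11 of the tested genes of this list were lower in ABE than in saline libraries (median log2 difference -0.64, against a median of -0.00035 over all genes), and 2 of 11 were lower in saline than in wild-type (median -0.10). Alad, which makes porphobilinogen, fell by 0.82 in ABE against saline (limma adjusted p = 0.000909). Tmem14c, a mitochondrial porphyrin transporter, fell by 0.48 (limma adjusted p = 0.00459). Against wild-type, all 11 were lower in ABE libraries (median -0.73).

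Genes of the red cell membrane and cytoskeleton had 15 of 19 lower and 1 higher in ABE against saline (median log2 difference -0.82). Rhd and Rhag of the Rh complex each fell by 1.03 (limma adjusted p 0.0023 and 0.0016). Aqp1, a water channel that vessels also express, differed by -0.18 (limma adjusted p = 0.17). In saline against wild-type 1 of 19 was lower, and in ABE against wild-type 16 were lower and 2 higher.

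Of the erythroid transcription factors, 6 of 12 were already lower in saline than in wild-type libraries (median log2 difference -0.37), where 26.6% of all genes tested were lower. Lmo2, a bridging factor of the Gata1 complex, fell by 0.50 in saline against wild-type (limma adjusted p = 0.010), and Gata1 itself differed by -0.28 (limma adjusted p = 0.28). In ABE libraries all 12 were lower than wild-type (median -1.04), and 7 were lower and 1 higher than saline (median -0.70). Against saline, Gfi1b fell by 1.0 (limma adjusted p = 0.00128), Gata1 by 0.96 (adjusted p = 0.00115), E2f2, a cell cycle factor, by 0.92 (adjusted p = 0.00115), Zfpm1, a partner of Gata1, by 0.75 (adjusted p = 0.00234) and Lmo2 by 0.64 (adjusted p = 0.00246).

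Receptors and iron uptake followed the same layout. Of 10 tested genes in this list, 6 were lower in saline and 8 in ABE libraries than in wild-type, and 7 were lower in ABE than in saline (median log2 difference -0.31), with 0 higher throughout. Epor, the erythropoietin receptor, fell by 0.51 in saline against wild-type (limma adjusted p = 0.035) and by a further 0.93 in ABE against saline (limma adjusted p = 0.0011). Tfrc, the transferrin receptor, and Slc25a37, which carries iron into mitochondria, fell by 0.62 and 0.80 in ABE against saline (limma adjusted p 0.00249 and 0.00407).

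Late red cell genes, such as carbonic anhydrases and antioxidant enzymes, had 19 of 20 lower in ABE than in saline libraries (median log2 difference -0.90). Car1 fell by 1.26 (limma adjusted p = 0.000726), Hemgn, a nuclear protein of erythroid cells, by 1.01 (adjusted p = 0.00349), Car2 by 0.98 (adjusted p = 0.0026), the uncoupling protein Ucp2 by 0.78 (adjusted p = 0.000855) and Prdx2, a peroxiredoxin, by 0.68 (adjusted p = 0.0013). In saline against wild-type 2 of 20 were higher and 1 lower (median 0.10), and in ABE against wild-type 18 were lower and 0 higher.

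A further list held genes that clear hemoglobin and store iron. Of 10 tested, 8 were lower in ABE than in saline libraries and 0 higher (median log2 difference -0.58). Hmox1, which opens the heme ring, fell by 1.24 (limma adjusted p = 0.00042), Blvrb, a biliverdin reductase, by 0.84 (limma adjusted p = 0.0018), Hp (haptoglobin) by 0.82 (limma adjusted p = 0.00131) and the ferritin light chain Ftl1 by 0.57 (limma adjusted p = 0.00046). Fth1, the ferritin heavy chain, rose by 0.83 in saline against wild-type (limma adjusted p = 3.3e-11) and fell by 0.24 in ABE against saline (limma adjusted p = 0.00658). Macrophage markers were lower in 9 of 10 in ABE against saline.

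Lists of other marrow cells are given beside the erythroid genes, with no test of a difference between lists. All 9 tested markers of megakaryocytes and platelets, the lineage nearest to red cells, were lower in saline than in wild-type (median log2 difference -0.95), in ABE than in wild-type (-1.83) and in ABE than in saline (-0.82). Ppbp, a platelet chemokine, fell by 0.95 and then by 1.10 along this order of groups. B cell markers were lower than wild-type in 10 of 12 in both transgenic groups, and 1 was higher and 1 lower in ABE against saline. Neutrophil markers had 3 of 12 higher in saline than in wild-type and 3 of 12 lower in ABE than in wild-type. Neither count exceeded the share of all genes tested (26.0% higher and 35.4% lower in these comparisons). Dividing cell markers were lower in 10 of 10 in ABE against saline (median -0.72) and in 1 of 10 in saline against wild-type, and their mean correlated with Alas2, Slc4a1, Epb42 and Klf1 at r from 0.93 to 0.97 over the 36 libraries.

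Cells of bone and vessel did not follow the erythroid direction in ABE against saline. Osteocyte markers were higher than wild-type in 8 of 8 in both transgenic groups, and 1 of 8 was lower in ABE than in saline. Osteoblast markers had 1 higher and 1 lower of 7, and endothelial markers had 4 of 8 higher and 0 lower, in ABE against saline. How far the cell makeup of the samples contributes to the erythroid differences was not tested beyond the covariates given above.

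**Figure D5:**
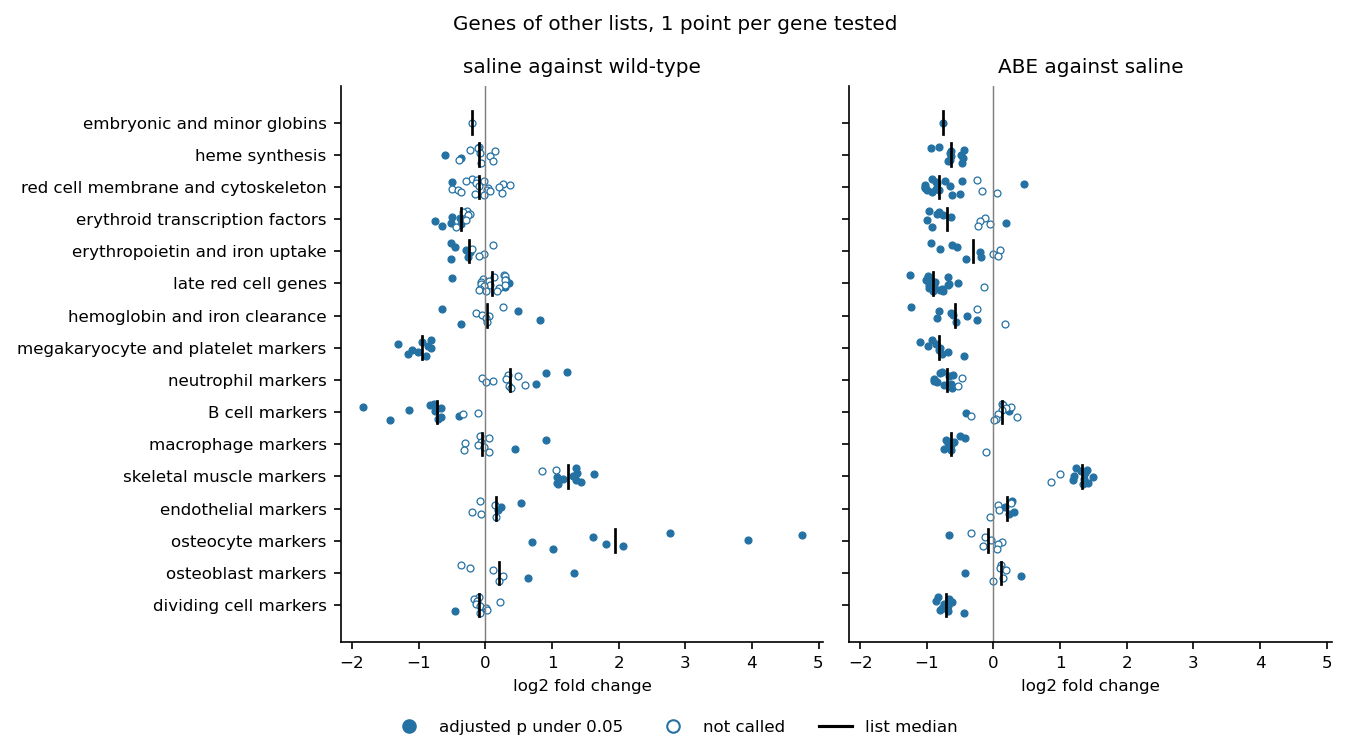
Log2 differences (horizontal axis) of the tested genes of each list in saline against wild-type (left) and ABE against saline (right); 1 point per gene, filled at an adjusted p under 0.05, with bars at list medians. All 11 heme synthesis genes are filled and below 0 at right, where the skeletal muscle markers have a median of 1.33.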

How the data were processed

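Poly(A) RNA from 36 mouse tibiae was sequenced as stranded paired reads. The authors aligned reads to GRCm38 with STAR (version 2.73a per the labels) and counted genes of Gencode M24 with QoRTs, and deposited TPM for 56246 genes. How the TPM were made is not given in the sources used here. The deposited TPM equalled whole reads per gene length less 218 bp (at least 1 bp), times 1 constant per library, in 100% of values within 0.001 reads (wider in proportion for highly expressed genes), and reads were recovered from this.

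TPM were divided by median ratio factors from 14219 genes. limma 3.58.1 (R 4.3.3, empirical Bayes with a trend) was fitted to log2(scaled TPM + 0.5) for 15923 genes with a mean of at least 0.5, over 36 libraries with group and sex, and p-values were adjusted by Benjamini-Hochberg. Samples were grouped by their labels. Globin ratios were compared by two-sided permutation tests (100000 resamples, or exact under 10 libraries) with scipy 1.17.1, adjusted over 6 comparisons. Each library came from a separate mouse by its label, and 0 pairs of libraries were identical. Symbols occurring more than once were represented by the row with the highest mean. The text names, for each of 16 lists, the genes with the highest level and the largest called change in ABE against saline, and genes among the 10 most like the members, except for some that are not reported here. The members and lists were chosen with earlier results of these data known. Scripts were tested on simulated data. Coordinates are of GRCm38 (annotation vM21, in which all 8 gene ID versions matched), and promoters are those of RefSeq on GRCm38.p6. Alternatives covered scaling, pseudocounts, minimum levels, covariates, weights, single sexes, summed paralogs and leaving out libraries.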

Additional observations from a re-analysis of the deposited data

Results flagged for a closer look

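Within the 6 wild-type males, mouse 615M lay apart from the others for 2 members by Dixon's test for a single extreme value, taken on log2(scaled TPM + 0.5). Its Hba-a2 level was 0.534 scaled TPM, the lowest of 6, where the other males ran from 1.17 to 1.70. Its Klf1 level was 8.70 scaled TPM, where the others ran from 15.6 to 20.01. Of 48 combinations of member, group and sex tested, these 2 passed, both in that mouse, and chance passes about 1 in 20. Leaving out any single library, 615M included, kept Hba-a2 lower in saline than in wild-type libraries (log2 difference -0.70 to -0.57, limma adjusted p up to 0.0063).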

How the results depend on the processing

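Most results kept their direction and their side of the threshold. In saline against wild-type, 1 member was called. The count was 0 with a minimum mean of 5 scaled TPM (which leaves Hba-a2 out), 0 with paralogs summed and 0 in females alone. With the muscle covariate 2 were called, Hbb-bt and Alas2, both higher, where 21.4% of all genes tested were higher. With array weights 2 were called, Hba-a2 lower and Hbb-bt higher, where 31.8% of all genes tested were lower and 32.7% higher. In ABE against wild-type, 6 were called, and 0 with the muscle covariate, where Hbb-bs (0.27, from a value that had missed the threshold), Hbb-bt (0.16) and Alas2 (0.016) turned positive without a call. In ABE against saline, 6 were called, but 1 with the muscle covariate, 0 with the neutrophil covariate and 1 in males alone. All 7 were called lower in both ABE comparisons with a pseudocount of 0.1, limma-voom, array weights and TPM as deposited. In those fits 23.3% to 40.8% of all genes tested were lower in ABE than in saline libraries. Against wild-type the shares were 35.5% to 58.3%, the highest with TPM as deposited. Hba-a2 in ABE against saline was -0.95 with limma-voom (adjusted p = 0.033). The alpha to beta log2 ratio of saline against wild-type was -1.23 in females alone and missed the adjusted threshold, and that of ABE against wild-type passed in males alone (-0.99). In libraries with a scaling factor of at least 0.7 the latter was -1.26, but that setting removed the 3 highest ABE ratios and is no test. Leaving out each library in turn gave 1 to 1, 6 to 7 and 5 to 7 called members in the 3 comparisons, and without ABE replicate 1 (F109436) Slc4a1 fell by 0.95 in ABE against saline. Over single members, 380 values under other alternatives stayed on their side, 15 passed newly, 29 no longer passed and 2 reversed, and the cause was not tested. No paired analysis was possible because the replicate numbers only follow the order of the samples. Low read numbers limit the alpha globins most.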
